A study of Mus musculus with 12 samples.

Results

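The antiviral interferon-stimulated genes are a set of 40 mouse genes whose products detect, modify or block viral RNA, DNA and protein. They were listed by name, and the list was chosen with earlier results of these data known. Of the 40 genes, 39 were in the count tables, and all 39 passed the filter on low counts, among 13141 genes tested of 31054 gene identifiers. Mx2 was not analysed here. Their messenger RNA was measured in 12 libraries of dendritic cells (antigen-presenting cells) grown from bone marrow of wild-type C57BL6 mice, taken on day 7 and enriched for live cells bearing the integrin chain CD11c. The 4 groups, of 3 libraries each, were TolDC + LPS, made with vitamin D3 and interleukin 10 and stimulated with lipopolysaccharide; TolDC, made the same way and not stimulated; BMDC + LPS, control cells stimulated with lipopolysaccharide; and BMDC, control cells with neither treatment. Lipopolysaccharide (LPS) is a component of the bacterial outer membrane that cells detect through Toll-like receptor 4. Doses, hours of stimulation, the ages of the mice and any pooling of mice are not stated. Nothing says that the 3 libraries of a group came from separate animals or cultures, and p-values then measure only how these libraries vary, which may be technical.

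Interferon-stimulated genes are switched on when type I interferon binds its receptor (Ifnar1 and Ifnar2) and the factor that holds Stat2 and Irf9 binds a DNA element called the interferon-stimulated response element. In dendritic cells LPS can start the same programme: Toll-like receptor 4 signals through the adaptors Ticam1 and Ticam2 to Irf3, which switches on interferon-beta (Ifnb1), and the secreted interferon then acts on the cells that made it and on their neighbours. Irf7, itself an interferon-stimulated gene, amplifies the loop. Usp18 and Socs1 restrain it.

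The libraries held 21844405 to 41764975 reads assigned to genes. Levels are given as CPM (read counts scaled to a common library size), in the order of the library numbers 1, 2 and 3. Itgax, which encodes CD11c, averaged 1378 ± 109 CPM in TolDC with LPS, 2091 ± 125 CPM in TolDC, 1357 ± 156 CPM in BMDC with LPS and 2077 ± 153 CPM in BMDC (SD, n = 3 each). It is 1 of 12 listed dendritic cell markers, of which 11 were tested. With LPS, 7 were called lower and 3 higher in TolDC than in BMDC (33.7% and 34.3% of all genes tested). Without LPS, 4 were lower and 5 higher (30.4% and 32.0%). The libraries numbered 1 stood apart from those numbered 2 and 3: a list of 15 granulocyte markers summed to 837 CPM in TolDC with LPS replicate 1 and to 1147 and 1247 CPM in the other two, to 782 CPM in TolDC replicate 1 and to 1300 and 1324 CPM in the other two, to 412 CPM in BMDC with LPS replicate 1 and to 1581 and 1732 CPM in the other two, and to 839 CPM in BMDC replicate 1 and to 2745 and 2816 CPM in the other two. A list of 10 mast cell and basophil markers summed to 72.5 CPM in TolDC with LPS replicate 1 and to 223 and 266 CPM in the other two, to 73.1 CPM in TolDC replicate 1 and to 264 and 265 CPM in the other two, to 29.6 CPM in BMDC with LPS replicate 1 and to 131 and 147 CPM in the other two, and to 29.4 CPM in BMDC replicate 1 and to 109 and 111 CPM in the other two. In bulk samples fewer cells of a type and less RNA per cell cannot be told apart. The counts of called genes of the whole set are therefore also given without the 4 libraries numbered 1. Deviations from the group means correlated between libraries of the same number in every pair of groups compared. They also correlated between libraries numbered 2 and 3 of different groups (0.104 to 0.202). These values set number 1 apart, and numbers 2 and 3 are not shown to mark pairs. Results whose call changed in a fit with a replicate block (a term for each library number) are given with that value.

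A promoter of 30 of the 39 genes was in the RefSeq table (assembly GRCm38.p6, 250 bases before to 50 bases after the start of a transcript). The letters GAAANNGAA, the core of the interferon-stimulated response element, were found on either strand in 18 of the 30 (60%), against 9.76% of the promoters of 27025 genes. With only the bases before the start they were found in 13 (43.3%) against 8.18%. The gamma-activated site TTCNNNGAA was found in 8 (26.7%, against 9.55%), and the letters GGGANNTTC, a core of the kappaB element, in 4 (13.3%, against 4.47%). Matches of the first motif often overlapped each other, in steps that repeat GAAA. In Bst2 and in Ifitm3 a gamma-activated site overlapped a match of it, and in Ifit2 the kappaB core overlapped a gamma-activated site. These are matches of letters and not binding sites.

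The sequences below show how differently the core is laid out among genes whose levels are described further on. Isg15 at chr4:156200849-156200988 has 3 cores in an unbroken tandem, Ifit1 at chr19:34640719-34640858 and Ifit3 at chr19:34583359-34583498 have 3 cores on the other strand, Oas3 at chr5:120777690-120777829 and Bst2 at chr8:71537503-71537642 have 2 overlapping cores, and Rsad2 at chr12:26456483-26456622 has 1. Ifi205 at chr1:174031811-174031925 and Phf11b at chr14:59341361-59341500 have 1 core each and are shown because the first was the member with the largest deficit in TolDC and the second did not rise with LPS. Oasl1 at chr5:114923070-114923209 had the largest rise with LPS and no match. All are written 5′ to 3′ on the strand of the gene (minus for Isg15, Oas3, Bst2, Rsad2, Ifi205 and Phf11b, plus for Ifit1, Ifit3 and Oasl1), from 170 bases to 31 bases before the start (to 56 bases before it for Ifi205), and capitals mark matches of the core or its reverse complement.
Isg15: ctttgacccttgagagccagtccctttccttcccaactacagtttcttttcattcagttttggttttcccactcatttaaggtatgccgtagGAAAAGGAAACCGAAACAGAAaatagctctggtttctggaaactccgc
Ifit1: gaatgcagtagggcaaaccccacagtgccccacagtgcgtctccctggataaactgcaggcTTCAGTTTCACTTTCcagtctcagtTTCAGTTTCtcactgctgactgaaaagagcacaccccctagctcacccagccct
Ifit3: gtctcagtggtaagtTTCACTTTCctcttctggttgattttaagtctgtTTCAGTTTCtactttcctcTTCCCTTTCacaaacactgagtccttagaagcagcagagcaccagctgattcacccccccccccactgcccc
Oas3: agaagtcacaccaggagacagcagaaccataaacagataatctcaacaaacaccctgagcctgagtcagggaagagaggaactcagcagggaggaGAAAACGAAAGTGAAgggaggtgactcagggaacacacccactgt
Bst2: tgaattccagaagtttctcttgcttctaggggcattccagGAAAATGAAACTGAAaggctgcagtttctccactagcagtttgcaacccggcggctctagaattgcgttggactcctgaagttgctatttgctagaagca
Rsad2: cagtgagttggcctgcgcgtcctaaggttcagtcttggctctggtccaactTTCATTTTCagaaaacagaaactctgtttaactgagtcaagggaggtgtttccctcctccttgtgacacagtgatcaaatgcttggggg
Ifi205: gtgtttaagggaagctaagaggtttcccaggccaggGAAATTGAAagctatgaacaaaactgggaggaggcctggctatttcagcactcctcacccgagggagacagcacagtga
Phf11b: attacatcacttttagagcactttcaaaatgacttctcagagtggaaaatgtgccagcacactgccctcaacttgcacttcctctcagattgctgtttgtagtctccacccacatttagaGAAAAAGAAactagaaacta
Oasl1: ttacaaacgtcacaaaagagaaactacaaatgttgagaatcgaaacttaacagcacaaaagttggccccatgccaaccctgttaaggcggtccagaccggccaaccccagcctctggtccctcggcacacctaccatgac
Holding a match did not order the genes by response: the median log2 change with LPS in BMDC was 1.47 for the 18 genes with a match and 1.98 for the 12 without one, and with LPS in TolDC it was 1.17 and 1.07.

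**Figure D1:**
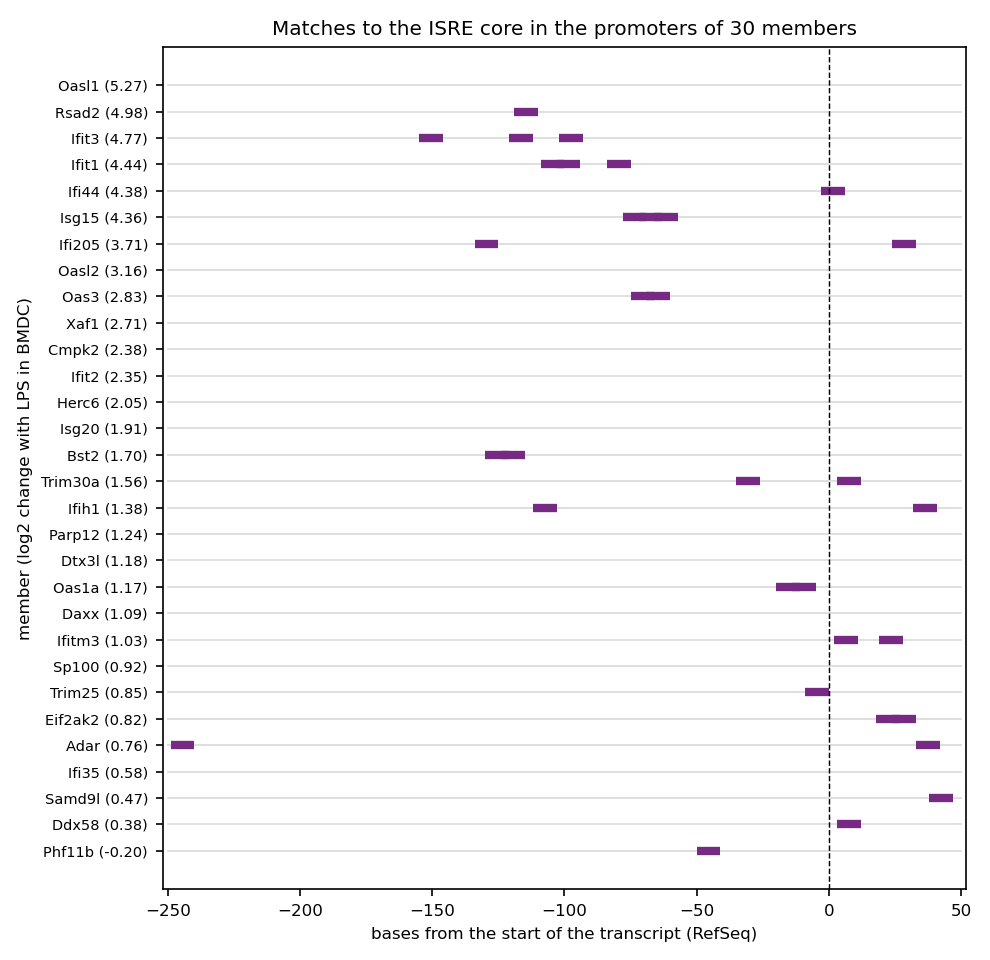
Position of each match of GAAANNGAA (purple bars, either strand) in the promoters of 30 genes, in bases from the start of the transcript (dashed line), with genes ordered by their log2 change with LPS in BMDC (in brackets). Matches occur in 18 of the 30 genes, and Oasl1, at the top with a change of 5.27, has none.

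LPS raised most of these genes in both cell types, and more in BMDC. In TolDC, 35 of 39 rose (adjusted p below 0.05; 35.4% of all genes tested rose), 3 fell (35.9% of all genes) and 1 was not called, and 21 rose at least 2-fold (9.64% of all genes) and 1 fell at least 2-fold (10.6%). In BMDC, 37 of 39 rose (36.7% of all genes), 1 fell (36.4%) and 1 was not called, and 29 rose (11.2%) and 0 fell (11.0%) at least 2-fold. The median log2 change was 1.17 in TolDC and 1.59 in BMDC, against −0.0017 and −0.0003 over all genes. The same 35 genes rose in both cell types (26.9% of all genes did). Mx1, Ifitm3 and Phf11b fell in TolDC, and Phf11b also fell in BMDC. Ddx58 in TolDC and Mx1 in BMDC were not called. Without the 4 libraries numbered 1, 36 rose and 3 fell in TolDC, 23 and 1 of them at least 2-fold, and 37 rose and 1 fell in BMDC, 29 and 0 of them at least 2-fold. Over all genes, the settings other than leaving out 1 library gave 3813 to 4868 rising and 4300 to 5610 falling in TolDC. In BMDC they gave 4254 to 5021 rising and 4404 to 5464 falling.

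The log2 change with LPS was lower in TolDC for 27 of the 39 genes (24.0% of all genes) and higher for none (20.4% of all genes), by the edgeR test of the difference between the responses itself. Of the 27, 24 rose in both cell types and rose less in TolDC, Ifitm3 fell in TolDC and rose in BMDC, Mx1 fell in TolDC and was not called in BMDC, and Phf11b fell in both and more in TolDC. The median difference was −0.55 on the log2 scale, against −0.0095 over all genes, and 5 genes differed at least 2-fold, all lower in TolDC (4.62% of all genes), and 0 higher (3.67%). These were Ifi44, Ifit2, Ifitm3, Mx1 and Ifi205. The remaining 12 genes were not called: Ifit1, Ifit3, Isg20, Oas1a, Oas2, Ddx58, Cmpk2, Rtp4, Zbp1, Bst2, Sp100 and Samd9l. Without the 4 libraries numbered 1, 33 changes were lower in TolDC and 3 higher, and with DESeq2 29 were lower and 1 higher. With a replicate block 32 were lower (26.6% of all genes) and 3 higher (23.2%): Ifit1, Ifit3, Isg20, Cmpk2 and Zbp1 were then also lower, and Oas2, Rtp4 and Samd9l were higher, as these 3 also were without the libraries numbered 1. With the libraries numbered 2 and 3 of each group summed, 23 were lower and 0 higher. The calls over all genes moved with the setting too. They were 3151 lower and 2683 higher in the main fit. In settings other than leaving out 1 library they were 2424 to 3549 lower and 1994 to 3357 higher.

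**Figure D2:**
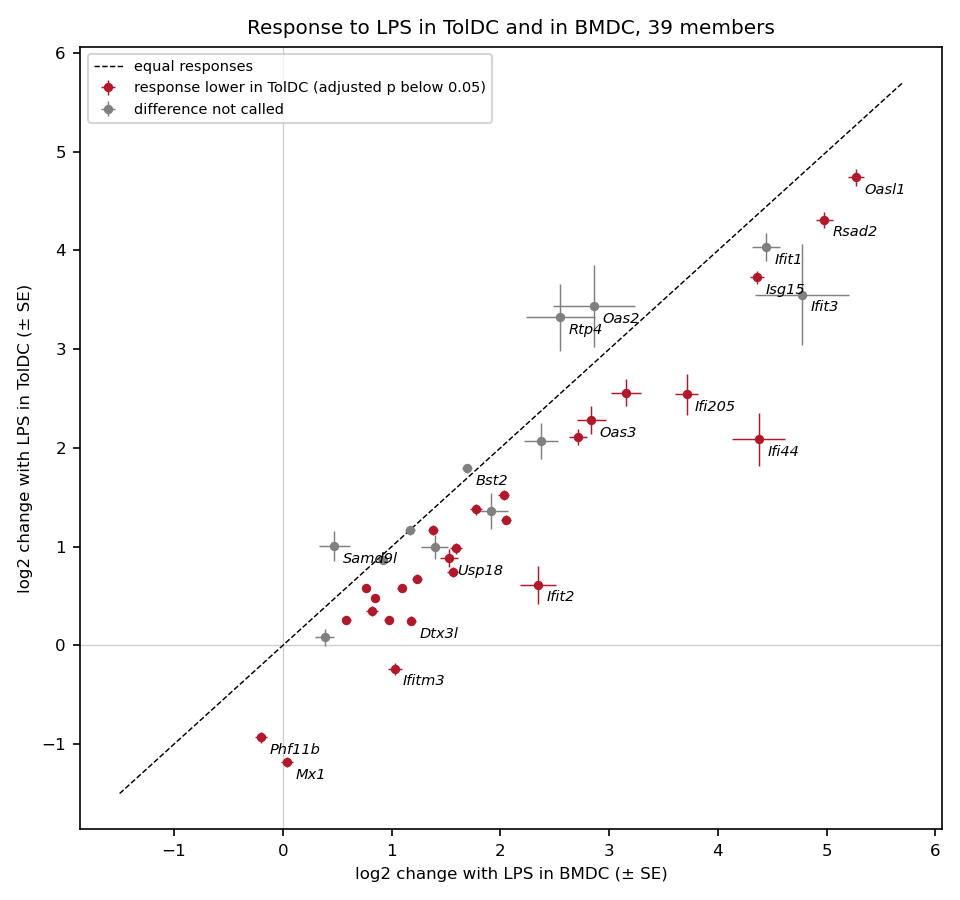
Log2 change with LPS in TolDC (vertical axis) against that in BMDC (horizontal axis) for 39 genes, with SE bars from edgeR; the dashed line marks equal responses, red marks genes whose response was lower in TolDC at an adjusted p below 0.05 and grey the others. The 27 red genes lie below the line, and Mx1, Ifitm3 and Phf11b lie below 0 on the vertical axis.

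With LPS, TolDC held less of most of these transcripts than BMDC did. Of 39 genes, 34 were lower in TolDC (33.7% of all genes tested), 12 of them at least 2-fold (9.50%), and 1, Ifitm3, was higher (34.3%), by at least 2-fold (6.85%). Oas2, Ifi35, Rtp4 and Zbp1 were not called. The median log2 difference was −0.72, against 0.02 over all genes. Without LPS, 20 genes were lower in TolDC (30.4%), 5 of them at least 2-fold (8.03%), 5 were higher (32.0%), 1 of them at least 2-fold (6.49%), and 14 were not called, with a median of −0.21 against 0.009. The 5 higher genes were Mx1, Ifi35, Zbp1, Ifitm3 and Daxx. The 20 genes lower without LPS were also lower with LPS (20.1% of all genes were lower in both). Without the 4 libraries numbered 1, 35 genes were lower with LPS, 12 of them at least 2-fold, and 1 higher, Ifitm3 at 0.96 and so short of 2-fold, and without LPS 23 were lower, 4 of them at least 2-fold, and 5 higher. With a replicate block 35 were lower (35.6% of all genes) and 1 higher (36.4%) with LPS, and 26 lower (32.6%) and 6 higher (34.2%) without. Over all genes, the settings other than leaving out 1 library gave 3936 to 4697 lower and 3949 to 5190 higher with LPS. Without LPS they gave 3662 to 4306 lower and 3521 to 4542 higher.

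Markers of other cells were also compared between TolDC and BMDC. Of all genes tested, 33.7% were lower and 34.3% higher in TolDC with LPS, and 30.4% lower and 32.0% higher without. Of 14 macrophage and monocyte markers, 8 were lower and 3 higher in TolDC with LPS and 9 lower and 3 higher without, and they summed to 2176 to 2618 CPM in TolDC with LPS, 1149 to 1152 CPM in TolDC, 1766 to 2209 CPM in BMDC with LPS and 2348 to 2471 CPM in BMDC. The sum was thus lower in TolDC without LPS, while with LPS the groups overlapped. Of 15 granulocyte markers, 5 were lower and 2 higher with LPS and 6 lower and 2 higher without. The 5 lower with LPS were near the share of all genes. Of 8 tested mast cell and basophil markers, 1 was higher and 0 lower with LPS and 2 higher and 0 lower without, counts below the shares of all genes. Their sum was higher in TolDC in each library number. Mcpt4, a mast cell protease, had 9 reads over the libraries of TolDC with LPS, 3 over TolDC and 0 over both BMDC groups. Tpsb2, another, had 8 reads over TolDC with LPS, 1 over TolDC, 2 over BMDC with LPS and 0 over BMDC. Both rest on too few reads to compare the cell types. The part of these cells in the differences of the antiviral genes was not tested.

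**Figure D3:**
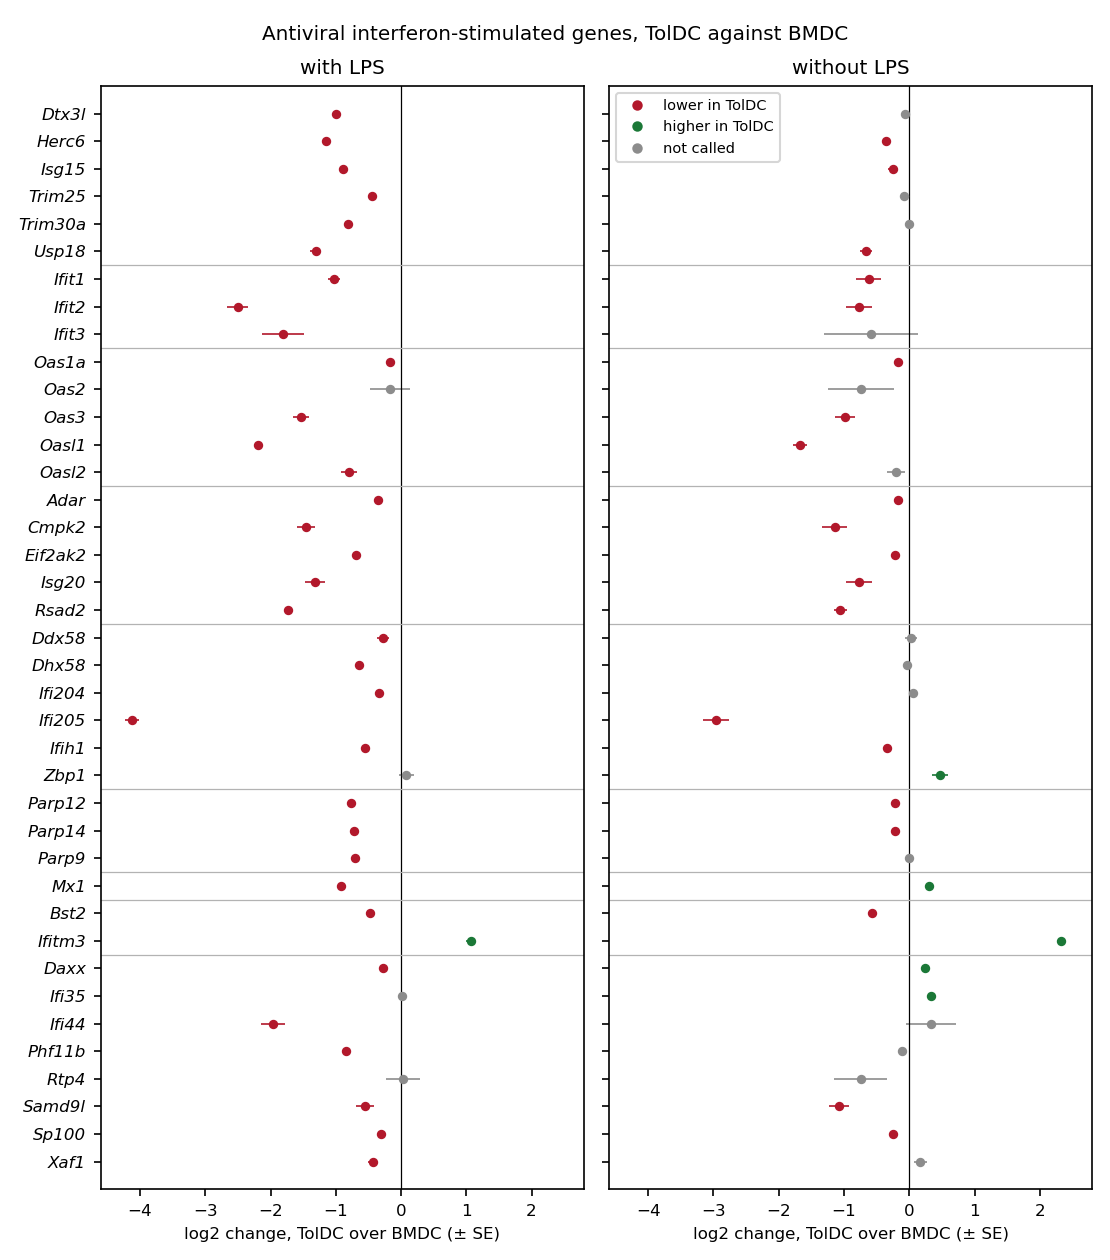
Log2 difference of TolDC over BMDC (horizontal axis, with SE bars from edgeR) for each of 39 genes, grouped by role, with LPS (left) and without LPS (right); red marks genes lower in TolDC, green higher and grey not called. With LPS, 34 genes lie to the left of 0 as called and Ifitm3 to the right, and without LPS 20 and 5 do.

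All 39 genes together summed to 3719 to 4017 CPM in TolDC with LPS, 2251 to 2296 CPM in TolDC, 5809 to 6307 CPM in BMDC with LPS and 1961 to 1967 CPM in BMDC. The sums of the 4 groups did not overlap. Without Ifitm3 they were 3178 to 3542 CPM in TolDC with LPS, 1654 to 1691 CPM in TolDC, 5588 to 6049 CPM in BMDC with LPS and 1831 to 1854 CPM in BMDC, so that the sum of the other genes was lower in TolDC in both states. The order of the group means, BMDC with LPS above TolDC with LPS above BMDC above TolDC, held for 24 of the 39 genes. In 6 (Daxx, Ddx58, Ifi204, Ifi44, Parp9 and Xaf1) the 2 groups without LPS changed places, but only in Daxx did the libraries of these groups not overlap. In Ifit2, Ifi205, Samd9l, Mx1 and Phf11b even unstimulated BMDC averaged above TolDC with LPS. Per kilobase of exon, the scale on which genes can be set beside each other, Ifitm3 was the most abundant in TolDC with LPS (750.0 ± 48.7 CPM per kilobase, SD, n = 3), in TolDC (884 ± 7.61) and in BMDC (176 ± 14.2). In BMDC with LPS it stood at 358 ± 28.6 CPM per kilobase beside Bst2 at 379.9 ± 22.1, a difference within their spread. Ifi44 was the least abundant per kilobase in every group.

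**Figure D4:**
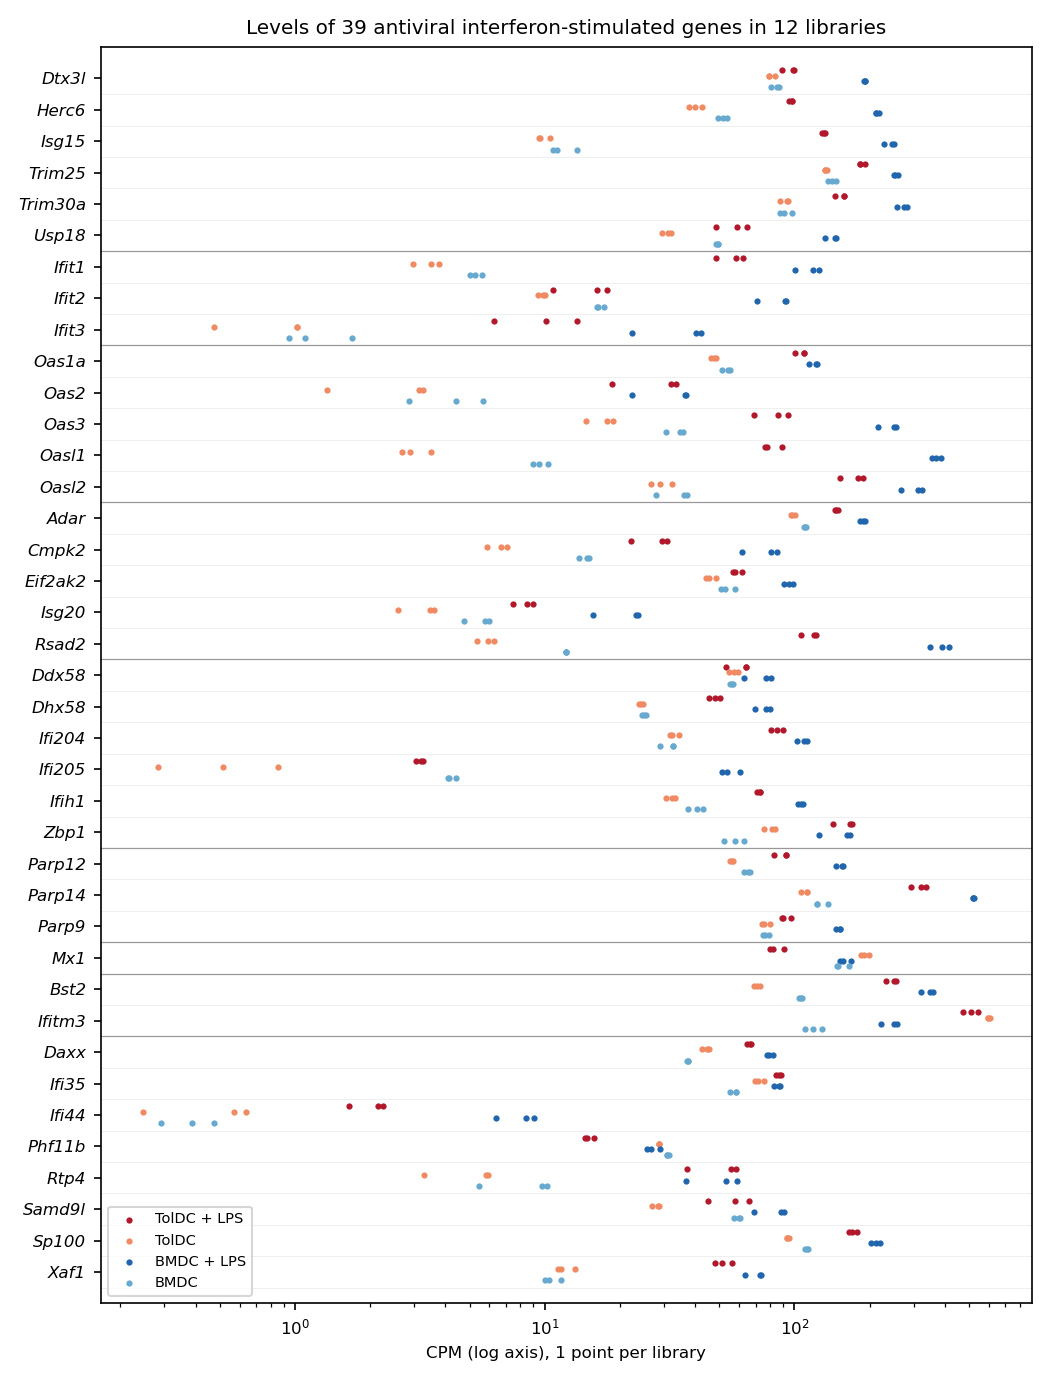
CPM (logarithmic axis) of each of 39 genes in 12 libraries, 1 point a library, grouped by role, with TolDC with LPS in dark red, TolDC in orange, BMDC with LPS in dark blue and BMDC in light blue. Dark blue points lie farthest right for most genes; Ifitm3 is highest in TolDC and Phf11b lowest in TolDC with LPS.

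The 3 Ifit proteins are relatives, of which Ifit1 binds RNA whose cap or end marks it as foreign. Gene positions are on the GRCm38 assembly, as for the promoters. All 3 Ifit genes rose with LPS in both cell types (26.9% of all genes did), and all 3 were lower in TolDC with LPS (33.7% of all genes). Ifit1 (chr19:34640871-34650009) had 48.5, 62.01 and 58.4 CPM in TolDC with LPS, 3.49, 2.98 and 3.77 CPM in TolDC, 101, 126 and 119 CPM in BMDC with LPS and 5.01, 5.28 and 5.595 CPM in BMDC. The stimulated libraries stood far above the others, and TolDC lay below BMDC in both states. Its log2 change with LPS was 4.04 ± 0.14 (SE, adjusted p = 1.10e-10) in TolDC and 4.44 ± 0.13 (SE, adjusted p = 1.56e-11) in BMDC. The difference between these responses was −0.41 (95% interval −0.90 to 0.09, adjusted p = 0.154), and it was called with a replicate block (−0.41 ± 0.12, adjusted p = 0.00735) and without the 4 libraries numbered 1 (−0.35).

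Ifit2 (chr19:34550694-34576419) was the Ifit gene that differed most. It had 10.8, 17.8 and 16.2 CPM in TolDC with LPS, 9.84, 9.43 and 10.01 CPM in TolDC, 70.6, 92.7 and 91.6 CPM in BMDC with LPS and 16.2, 17.3 and 16.4 CPM in BMDC. TolDC with LPS overlapped unstimulated BMDC, while BMDC with LPS lay far above both. The log2 change with LPS was 0.62 ± 0.19 (SE, adjusted p = 0.0176) in TolDC and 2.35 ± 0.17 (SE, adjusted p = 7.20e-07) in BMDC, and the difference was −1.73 ± 0.26 (SE, adjusted p = 4.92e-04). The call in TolDC was lost without TolDC replicate 2 (0.59), without TolDC with LPS replicate 2 (0.48) or without TolDC with LPS replicate 3 (0.55), and also with library totals only (0.52), with limma-voom (0.59) and with the libraries numbered 2 and 3 summed (0.54).

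Ifit3, which in human cells stabilises IFIT1, had 6.27, 13.5 and 10.1 CPM in TolDC with LPS, 0.476, 1.02 and 1.02 CPM in TolDC, 22.4, 42.2 and 40.4 CPM in BMDC with LPS and 1.09, 1.69 and 0.947 CPM in BMDC. Replicate 1 was the lowest library in both stimulated groups. Its log2 difference between TolDC and BMDC with LPS was −1.81 ± 0.32 (SE, adjusted p = 8.90e-04). The difference between the responses, −1.22, was not called (adjusted p = 0.2696). It was called with a replicate block (−1.24 ± 0.27, adjusted p = 4.29e-04) and without the 4 libraries numbered 1 (−1.41), and was not followed through all other settings. Reads that fall equally well on the near copy Ifit3b are not in the counts, so the level of Ifit3 is uncertain. The 3 genes lie close together on chromosome 19, with Ifit2 and Ifit3 separated by 7.11 kb and Ifit3 and Ifit1 by 52.1 kb.

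Isg15 (chr4:156199424-156200818) encodes a ubiquitin-like protein that is attached to other proteins or secreted. It had 128, 133 and 132 CPM in TolDC with LPS, 9.48, 9.55 and 10.5 CPM in TolDC, 229, 245 and 251 CPM in BMDC with LPS and 10.8, 11.2 and 13.5 CPM in BMDC. LPS set the groups apart by more than any spread between libraries, and TolDC with LPS had 54.2% of the mean of BMDC with LPS. The log2 change was 3.73 ± 0.065 (SE, adjusted p = 4.95e-19) in TolDC and 4.36 ± 0.064 (SE, adjusted p = 4.30e-20) in BMDC, and the difference was −0.63 ± 0.093 (SE, adjusted p = 2.22e-05).

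Usp18, which removes Isg15 from proteins and holds back signalling at the interferon receptor, had 48.3, 64.7 and 58.8 CPM in TolDC with LPS, 31.3, 29.6 and 32.1 CPM in TolDC, 132, 147 and 146 CPM in BMDC with LPS and 49.5, 49.6 and 48.6 CPM in BMDC. The highest library of TolDC with LPS lay under the lowest of BMDC with LPS. The log2 change with LPS was 0.88 ± 0.088 in TolDC and 1.52 ± 0.083 in BMDC, with a difference of −0.64 ± 0.12 (SE, adjusted p = 8.95e-04). Herc6, the ligase that attaches Isg15 in mice, also rose less in TolDC (1.27) than in BMDC (2.05), with a difference of −0.78 ± 0.062 (SE, adjusted p = 1.05e-08).

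Trim25 and Trim30a are ligases of the tripartite motif family, the first acting on the RNA sensor Ddx58 and the second known in mice to restrain Toll-like receptor signalling. Trim30a had 145, 158 and 158 CPM in TolDC with LPS, 93.8, 94.2 and 87.4 CPM in TolDC, 257, 274 and 281 CPM in BMDC with LPS and 87.4, 97.6 and 90.4 CPM in BMDC. Without LPS the cell types overlapped, and with LPS they did not. The difference between the responses was −0.81 ± 0.071 (SE, adjusted p = 3.64e-08) for Trim30a and −0.37 ± 0.052 (SE, adjusted p = 1.33e-05) for Trim25. Dtx3l, a ligase that works with Parp9, had 89.3, 99.6 and 98.8 CPM in TolDC with LPS, 83.5, 79.4 and 79.3 CPM in TolDC, 189, 191 and 192 CPM in BMDC with LPS and 86.7, 85.1 and 80.5 CPM in BMDC. With LPS it had 50.2% of the BMDC level in TolDC, and its response differed by −0.93 ± 0.063 (SE, adjusted p = 1.40e-09). Thus all 6 genes of Isg15 and the ubiquitin system rose in both cell types (26.9% of all genes did), and all 6 rose less in TolDC (the log2 change was lower there for 24.0% of all genes).

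Oas1a, Oas2 and Oas3 make the oligoadenylate chains that activate the ribonuclease RNase L, and Oasl1 and Oasl2 are relatives with ubiquitin-like domains. The 5 genes rose in both cell types (26.9% of all genes did) and 4 were lower in TolDC with LPS (33.7% of all genes), but by very different amounts. Oasl1 (chr5:114923240-114937915), known in mice to restrain the translation of Irf7, had 89.01, 76.5 and 77.7 CPM in TolDC with LPS, 3.49, 2.69 and 2.89 CPM in TolDC, 387, 354 and 369 CPM in BMDC with LPS and 9.49, 10.3 and 8.996 CPM in BMDC. It had the largest log2 change with LPS among the 39 genes in both cell types, 4.74 ± 0.087 (SE, adjusted p = 6.32e-18) in TolDC and 5.27 ± 0.073 (SE, adjusted p = 1.79e-19) in BMDC. It was lower in TolDC, with a log2 difference of −1.67 ± 0.11 (SE, adjusted p = 4.37e-10) without LPS and of −2.19 ± 0.059 (SE, adjusted p = 1.86e-15) with LPS.

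Oas3 had 69.00, 94.2 and 85.6 CPM in TolDC with LPS, 14.6, 18.8 and 17.8 CPM in TolDC, 217, 255 and 250.5 CPM in BMDC with LPS and 30.7, 34.7 and 35.9 CPM in BMDC. In TolDC it was at 34.4% of the BMDC mean with LPS and at 50.5% without. The smaller rise of Oas3 in TolDC (−0.56 ± 0.19 (SE, adjusted p = 0.0435)) lost its call in 8 of the 12 fits that left out 1 library (any library of BMDC, replicate 2 or 3 of BMDC with LPS, replicate 2 or 3 of TolDC, or replicate 3 of TolDC with LPS), at values between −0.48 and −0.59. It was also lost with the column counted without regard to strand (−0.54), upper quartile scaling (−0.50), library totals only (−0.58), no filter (−0.53), limma-voom (−0.56) and the libraries numbered 2 and 3 summed (−0.57). That of Oasl2 (−0.60 ± 0.19 (SE, adjusted p = 0.0299)) did so in 5, which left out replicate 2 or 3 of BMDC with LPS (−0.54 and −0.57), replicate 2 or 3 of TolDC (−0.60 and −0.52) or replicate 1 of TolDC with LPS (−0.51), and with upper quartile scaling (−0.54), no filter (−0.57) and the libraries numbered 2 and 3 summed (−0.62). Oasl2 itself had 152, 188 and 179.6 CPM in TolDC with LPS, 26.7, 29.02 and 32.2 CPM in TolDC, 268, 325 and 312 CPM in BMDC with LPS and 28.01, 37.3 and 36.2 CPM in BMDC.

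In contrast to these, Oas1a changed almost equally. It had 101, 109 and 109 CPM in TolDC with LPS, 47.5, 48.5 and 46.2 CPM in TolDC, 115, 122 and 123 CPM in BMDC with LPS and 51.2, 55.2 and 54.1 CPM in BMDC. The log2 change was 1.17 ± 0.046 in TolDC and 1.17 ± 0.045 in BMDC, and the difference lay between −0.14 and 0.14 (95% interval, adjusted p = 0.999). TolDC had 88.6% of the BMDC mean with LPS (adjusted p = 0.00168). Oas2 had 18.7, 33.5 and 31.96 CPM in TolDC with LPS, 1.35, 3.14 and 3.24 CPM in TolDC, 22.3, 36.3 and 36.6 CPM in BMDC with LPS and 2.86, 5.67 and 4.43 CPM in BMDC. Replicate 1 was the lowest library in every group, and TolDC and BMDC overlapped with and without LPS. Its difference with LPS was −0.17 (95% interval −0.88 to 0.54, adjusted p = 0.649). With a replicate block Oas2 was lower in TolDC with LPS (−0.19 ± 0.059, adjusted p = 0.00682) and without (−0.75 ± 0.13, adjusted p = 1.33e-05), and it rose more in TolDC (difference 0.57 ± 0.14, adjusted p = 0.00175). The Oas1 copies are alike in sequence and reads shared between them were not counted. Oas2 lies 3.25 kb from Oas3.

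Rsad2 (viperin; chr12:26442746-26456452) makes a chain-terminating nucleotide that stops viral RNA synthesis, and Cmpk2, 12.8 kb away on the other strand, makes nucleotides of the kind it uses. Rsad2 had 106, 122 and 120.1 CPM in TolDC with LPS, 5.35, 6.29 and 5.92 CPM in TolDC, 349.7, 414 and 389 CPM in BMDC with LPS and 12.2, 12.1 and 12.2 CPM in BMDC. TolDC with LPS stood well below BMDC with LPS and far above both unstimulated groups. Its log2 change was 4.31 ± 0.081 (SE, adjusted p = 4.26e-17) in TolDC and 4.98 ± 0.075 (SE, adjusted p = 2.04e-18) in BMDC, and the difference between responses was −0.67 ± 0.11 (SE, adjusted p = 1.77e-04). Cmpk2 had 22.1, 30.8 and 29.6 CPM in TolDC with LPS, 5.87, 6.69 and 7.08 CPM in TolDC, 61.7, 84.8 and 80.3 CPM in BMDC with LPS and 13.8, 14.8 and 15.1 CPM in BMDC. It was lower in TolDC both without LPS (−1.15 ± 0.19 (SE, adjusted p = 5.38e-04)) and with LPS (−1.45 ± 0.14 (SE, adjusted p = 8.85e-06)), and its responses did not differ beyond their error (−0.31 ± 0.24, 95% interval −0.87 to 0.25, adjusted p = 0.344), though they did with a replicate block (−0.31 ± 0.10, adjusted p = 0.0133) and without the 4 libraries numbered 1 (−0.34).

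Isg20, an exonuclease that degrades viral RNA, had 7.47, 8.98 and 8.47 CPM in TolDC with LPS, 2.58, 3.47 and 3.59 CPM in TolDC, 15.7, 23.6 and 23.2 CPM in BMDC with LPS and 4.76, 5.996 and 5.77 CPM in BMDC. Its level in TolDC with LPS was at 39.9% of that in BMDC with LPS. Eif2ak2 (PKR), a kinase that stops translation when it binds double-stranded RNA, had 56.7, 61.5 and 57.5 CPM in TolDC with LPS, 48.7, 45.4 and 44.2 CPM in TolDC, 98.3, 91.05 and 95.3 CPM in BMDC with LPS and 57.6, 50.8 and 52.8 CPM in BMDC. The smallest stimulated BMDC library lay above every TolDC library. Adar, which edits double-stranded RNA, had 147, 149 and 145 CPM in TolDC with LPS, 100.5, 97.5 and 96.8 CPM in TolDC, 188, 191 and 184 CPM in BMDC with LPS and 112, 109.6 and 110.1 CPM in BMDC. The groups with LPS did not overlap each other, and the log2 difference between TolDC and BMDC with LPS was −0.35 ± 0.034 (SE, adjusted p = 3.04e-08), the smallest of these 5 enzymes in size. Eif2ak2 differed by −0.70 ± 0.051 (SE, adjusted p = 7.49e-10).

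Of the 6 sensors of viral RNA and DNA, 5 were lower in TolDC with LPS (33.7% of all genes) and 1 was not called; 1 of the 5, Ddx58, lost its call under several settings. Ddx58 (RIG-I, now named Rigi) had 53.3, 63.96 and 63.8 CPM in TolDC with LPS, 59.4, 57.2 and 54.9 CPM in TolDC, 62.8, 80.4 and 77.04 CPM in BMDC with LPS and 56.3, 55.3 and 56.8 CPM in BMDC. The cell types overlapped with and without LPS, and LPS changed it by 0.080 ± 0.089 (SE, adjusted p = 0.439) in TolDC and 0.38 ± 0.090 (SE, adjusted p = 0.00211) in BMDC. Its difference with LPS, −0.28 ± 0.089 (SE, adjusted p = 0.0152), was not called without BMDC with LPS replicate 2 (−0.21) or 3 (−0.24), with upper quartile scaling (−0.22), no filter (−0.25), a fit to these 2 groups (−0.29) or the libraries numbered 2 and 3 summed (−0.28). Summing them also ended the call of its rise in BMDC (0.34), and without the 4 libraries numbered 1 its rise in TolDC was called (0.19). Ifih1 (MDA5) had 70.9, 72.7 and 73.1 CPM in TolDC with LPS, 33.4, 32.3 and 30.7 CPM in TolDC, 103, 108 and 106 CPM in BMDC with LPS and 42.9, 40.9 and 37.5 CPM in BMDC. Its difference between responses was −0.21 ± 0.067 (SE, adjusted p = 0.0148), and leaving out BMDC replicate 3 ended that call (−0.16), as did upper quartile scaling (−0.15) and summing the libraries numbered 2 and 3 (−0.19). Dhx58 (LGP2), a regulator of both, responded by 0.98 ± 0.055 in TolDC and 1.59 ± 0.054 in BMDC, with a difference of −0.61 ± 0.077 (SE, adjusted p = 3.70e-06).

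Zbp1 senses nucleic acids in the Z form and can trigger cell death. It had 142, 169 and 168 CPM in TolDC with LPS, 75.2, 81.2 and 83.8 CPM in TolDC, 126, 166 and 163 CPM in BMDC with LPS and 52.1, 57.98 and 62.7 CPM in BMDC. It was higher in TolDC without LPS (0.48 ± 0.12 (SE, adjusted p = 0.00739), not called with the libraries numbered 2 and 3 summed, at 0.48) and overlapped with BMDC under LPS (0.079, 95% interval −0.19 to 0.35, adjusted p = 0.568). The difference between its responses (−0.40, adjusted p = 0.0861) was called with DESeq2 (−0.40, adjusted p = 0.0112), with a replicate block (−0.40, adjusted p = 8.96e-06), with a term for the libraries numbered 1 (−0.40, adjusted p = 2.65e-06), without BMDC with LPS replicate 1 (−0.52) and without the 4 libraries numbered 1 (−0.42).

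Ifi204 and Ifi205 belong to the Ifi200 family of nuclear proteins, of which Ifi204 binds DNA of invading microbes. Their levels diverged. Ifi205 (chr1:174011998-174031810) had 3.26, 3.19 and 3.05 CPM in TolDC with LPS, 0.516, 0.857 and 0.282 CPM in TolDC, 60.4, 51.3 and 53.8 CPM in BMDC with LPS and 4.41, 4.08 and 4.13 CPM in BMDC. TolDC with LPS stood below unstimulated BMDC. Ifi205 was at 5.7% of the BMDC mean in TolDC with LPS and at 13.1% without LPS, with log2 differences of −4.12 ± 0.11 (SE, adjusted p = 6.64e-16) and −2.96 ± 0.20 (SE, adjusted p = 4.65e-10), the largest among the 39 genes in both states. The difference between its responses (−1.17 ± 0.28 (SE, adjusted p = 0.00263)) was not called without TolDC replicate 2 (−0.71). Ifi204 had 80.7, 89.9 and 85.2 CPM in TolDC with LPS, 34.3, 31.6 and 32.3 CPM in TolDC, 102, 109 and 113 CPM in BMDC with LPS and 32.6, 32.6 and 28.97 CPM in BMDC. Without LPS the cell types overlapped, and with LPS the difference was −0.34 ± 0.052 (SE, adjusted p = 1.17e-05). The Ifi200 genes are alike in sequence, and reads shared between copies were left out. Ifi203, a near relative, had 9.96, 10.8 and 11.8 CPM in TolDC with LPS, 3.01, 3.35 and 3.45 CPM in TolDC, 89.4, 86.7 and 82.3 CPM in BMDC with LPS and 17.5, 17.6 and 19.2 CPM in BMDC.

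Parp9, Parp12 and Parp14 belong to a family named for the transfer of ADP-ribose to proteins. LPS raised all 3 in both cell types (26.9% of all genes), and all 3 rose less in TolDC (the log2 change was lower there for 24.0% of all genes). Parp14 had 292, 336 and 321 CPM in TolDC with LPS, 112, 113 and 106 CPM in TolDC, 517, 521 and 526 CPM in BMDC with LPS and 136, 124 and 123 CPM in BMDC. Its stimulated groups did not overlap, and its response differed by −0.51 ± 0.071 (SE, adjusted p = 1.17e-05). Parp9 had 89.1, 96.5 and 89.8 CPM in TolDC with LPS, 79.9, 75.8 and 74.3 CPM in TolDC, 153, 147 and 152 CPM in BMDC with LPS and 78.96, 74.8 and 75.9 CPM in BMDC. Its levels overlapped without LPS, and the log2 change with LPS was 0.26 ± 0.042 in TolDC and 0.97 ± 0.042 in BMDC. Parp9 and Dtx3l overlap by 0.681 kb on opposite strands. The counts used here are strand-specific.

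Mx1 is a dynamin-like GTPase that traps incoming influenza virus, and many laboratory strains, C57BL/6 among them, carry an allele that gives no functional protein, so its transcript here does not stand for activity. It had 91.2, 79.5 and 82.3 CPM in TolDC with LPS, 198, 191 and 185 CPM in TolDC, 168, 156 and 153 CPM in BMDC with LPS and 165, 148 and 149.8 CPM in BMDC. The TolDC libraries were the highest without LPS and the lowest with it, and the 2 BMDC groups overlapped. LPS changed it by −1.18 ± 0.055 (SE, adjusted p = 1.38e-12) in TolDC and 0.041 ± 0.054 (SE, adjusted p = 0.505) in BMDC, the sign of the second turning to −0.04 with upper quartile scaling, to −0.03 with library totals only and to −0.0009 without BMDC with LPS replicate 1. The difference was −1.22 ± 0.077 (SE, adjusted p = 1.14e-09).

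Bst2 (tetherin) holds budding virus on the cell surface, and Ifitm3 blocks fusion of virus in endosomes. The 2 membrane proteins took different courses. Bst2 had 233, 255 and 250.1 CPM in TolDC with LPS, 69.1, 73.1 and 70.5 CPM in TolDC, 321, 350.1 and 359 CPM in BMDC with LPS and 107, 105 and 106 CPM in BMDC. It rose 3.47-fold in TolDC and 3.24-fold in BMDC, and the responses did not differ beyond their error (0.099 ± 0.065, 95% interval −0.05 to 0.25, adjusted p = 0.236). The level was lower in TolDC without LPS (−0.58 ± 0.047 (SE, adjusted p = 4.34e-09)) and with LPS (−0.48 ± 0.045 (SE, adjusted p = 2.22e-08)). Bst2 also marks plasmacytoid dendritic cells, and 12 markers of these cells summed to 93.1 to 101 CPM in TolDC with LPS, 107 to 109.8 CPM in TolDC, 88.0 to 95.02 CPM in BMDC with LPS and 99.2 to 101 CPM in BMDC. Siglech, the marker that defines them, was at 0 in 3 groups and at 0.0369 ± 0.005499 CPM in BMDC.

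Ifitm3 (chr7:141009586-141010770) was the exception of the set. It had 541, 475 and 509.7 CPM in TolDC with LPS, 605, 595 and 597 CPM in TolDC, 221, 258 and 249 CPM in BMDC with LPS and 109.9, 118 and 129 CPM in BMDC. Every TolDC library lay above every BMDC library, in contrast to most of the genes. Without LPS it was 5.04-fold higher in TolDC (log2 2.33 ± 0.066 (SE, adjusted p = 4.94e-14)) and with LPS 2.09-fold higher (log2 1.07 ± 0.064 (SE, adjusted p = 4.44e-10)). LPS lowered it in TolDC (−0.24 ± 0.063 (SE, adjusted p = 0.003099)) and raised it in BMDC (1.03 ± 0.065 (SE, adjusted p = 5.26e-10)). Its neighbours in the family were also higher in TolDC without LPS. Ifitm1 had 36.9, 42.1 and 45.1 CPM in TolDC with LPS, 31.7, 47.1 and 44.2 CPM in TolDC, 9.32, 14.1 and 15.1 CPM in BMDC with LPS and 3.07, 6.94 and 8.31 CPM in BMDC, and the difference was 2.77 ± 0.32 (SE, adjusted p = 6.60e-05) without LPS and 1.71 ± 0.29 (SE, adjusted p = 6.79e-04) with it. Ifitm2 differed by 0.75 ± 0.065 (SE, adjusted p = 1.99e-08) without LPS and was not called with LPS (0.13, adjusted p = 0.0556). Granulocyte, mast cell and basophil markers were lower in the libraries numbered 1 than in the others, and Ifitm1 was lowest in replicate 1 of every group; their part in these values was not tested.

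Daxx and Sp100 belong to nuclear bodies that silence viral genomes. Daxx had 66.2, 64.5 and 67.3 CPM in TolDC with LPS, 45.6, 42.6 and 44.5 CPM in TolDC, 77.8, 82.1 and 79.2 CPM in BMDC with LPS and 37.4, 37.4 and 37.1 CPM in BMDC. It was higher in TolDC without LPS (0.25 ± 0.042 (SE, adjusted p = 5.24e-05)) and lower with LPS (−0.27 ± 0.039 (SE, adjusted p = 5.96e-06)), and none of the 4 groups overlapped another. Sp100 rose by 0.87 ± 0.040 in TolDC and 0.92 ± 0.040 in BMDC, and the difference lay between −0.18 and 0.08 (95% interval, adjusted p = 0.477).

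Ifi35, a protein that adjusts sensor signalling, had 84.3, 88.7 and 86.8 CPM in TolDC with LPS, 71.3, 75.8 and 69.8 CPM in TolDC, 83.03, 87.6 and 86.7 CPM in BMDC with LPS and 55.1, 58.2 and 58.2 CPM in BMDC. The cell types were apart without LPS (0.34 ± 0.043 (SE, adjusted p = 1.66e-06)) and overlapped with it (0.014 ± 0.042, adjusted p = 0.777). Ifi44, a cytoplasmic protein induced by interferon, had 2.15, 1.65 and 2.25 CPM in TolDC with LPS, 0.635, 0.571 and 0.247 CPM in TolDC, 6.403, 8.43 and 9.03 CPM in BMDC with LPS and 0.388, 0.292 and 0.473 CPM in BMDC. Few reads carried it without LPS. With LPS it was 3.89-fold lower in TolDC (log2 −1.96 ± 0.18 (SE, adjusted p = 1.80e-08)), and the difference between its responses, −2.29 ± 0.43 (SE, adjusted p = 2.59e-04), was the largest in the set.

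Phf11b (chr14:59320964-59341351), of a family of zinc-finger proteins, ran against the set in both cell types. It had 14.5, 15.7 and 14.8 CPM in TolDC with LPS, 28.6, 28.7 and 28.6 CPM in TolDC, 25.6, 26.6 and 29.1 CPM in BMDC with LPS and 30.8, 31.5 and 30.9 CPM in BMDC. It fell with LPS, with a log2 change of −0.93 ± 0.056 (SE, adjusted p = 2.37e-11) in TolDC and of −0.20 ± 0.054 (SE, adjusted p = 0.00285) in BMDC. The Phf11 copies are alike, and reads shared between them were left out. Samd9l, which restrains viral translation, had 44.98, 65.98 and 57.9 CPM in TolDC with LPS, 28.3, 28.8 and 26.99 CPM in TolDC, 68.7, 91.00 and 88.1 CPM in BMDC with LPS and 60.4, 60.1 and 57.4 CPM in BMDC. Without LPS it was at 47.3% of the BMDC mean in TolDC (log2 −1.08 ± 0.15 (SE, adjusted p = 1.95e-04)). Rtp4, a chaperone of membrane receptors, had 37.2, 58.1 and 55.96 CPM in TolDC with LPS, 3.29, 5.84 and 5.96 CPM in TolDC, 36.9, 59.1 and 53.4 CPM in BMDC with LPS and 5.47, 9.76 and 10.2 CPM in BMDC. Replicate 1 was the lowest library of each group, and the cell types overlapped. Number by number it was lower in TolDC without LPS, and with a replicate block this was called (−0.74 ± 0.092, adjusted p = 9.34e-08), as was its greater rise in TolDC (0.76 ± 0.10, adjusted p = 9.03e-07). Samd9l too rose more in TolDC with the block (0.53 ± 0.17, adjusted p = 0.03995). Xaf1, a partner of an inhibitor of apoptosis, rose by 2.11 ± 0.081 in TolDC and by 2.71 ± 0.082 in BMDC, with a difference of −0.60 ± 0.12 (SE, adjusted p = 5.53e-04).

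The genes that produce and relay the interferon signal were counted in a list of 40, of which 34 were tested. With LPS, 19 of the 34 rose and 10 fell in TolDC (35.4% and 35.9% of all genes) and 24 rose and 5 fell in BMDC (36.7% and 36.4%). In TolDC against BMDC, 5 were higher and 18 lower with LPS (34.3% and 33.7% of all genes), and 8 higher and 13 lower without (32.0% and 30.4%). Ifnb1, the interferon made first, had 35 reads over the 3 libraries of TolDC with LPS and 0 in TolDC, and 19 reads in BMDC with LPS and 0 in BMDC. It was at least 9.04-fold higher with LPS in TolDC and at least 7.21-fold higher in BMDC, computed against a floor of 3 reads over a group. Between the stimulated cell types it was not called (0.39 ± 0.46, adjusted p = 0.471), at a depth that gave 0.202 to 0.424 CPM in TolDC with LPS and 0.211 to 0.369 CPM in BMDC with LPS. The Ifnb1 levels of the stimulated cell types thus overlapped.

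LPS raised both receptor chains in both cell types, but their levels differed between TolDC and BMDC in opposite directions. Ifnar1 was lower in TolDC with LPS (−0.24 ± 0.038 (SE, adjusted p = 2.22e-05)) and without LPS (−0.39 ± 0.040 (SE, adjusted p = 9.87e-08)), and Ifnar2 was higher in both (0.40 ± 0.048 (SE, adjusted p = 7.47e-07) and 0.26 ± 0.054 (SE, adjusted p = 3.89e-04)). The response of Ifnar1 to LPS was slightly greater in TolDC (0.15 ± 0.055 (SE, adjusted p = 0.0311)), a call lost in 6 of the 12 fits that left out 1 library (replicate 2 of BMDC, replicate 3 of BMDC with LPS, replicates 1 and 3 of TolDC, and replicates 2 and 3 of TolDC with LPS), at values from 0.14 to 0.15, and with library totals only (0.13) and the libraries numbered 2 and 3 summed (0.15).

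Stat2 and Irf7 rose less with LPS in TolDC and were lower there with LPS. Stat2 had 212, 216 and 221 CPM in TolDC with LPS, 156, 151 and 146 CPM in TolDC, 429.5, 409 and 421 CPM in BMDC with LPS and 151, 141 and 142 CPM in BMDC. TolDC and BMDC overlapped without LPS, and with LPS every TolDC library lay far below BMDC. Its log2 change with LPS was 0.52 ± 0.040 (SE, adjusted p = 9.13e-10) in TolDC and 1.54 ± 0.040 (SE, adjusted p = 1.01e-16) in BMDC, with a difference of −1.02 ± 0.056 (SE, adjusted p = 1.05e-10). Irf7 had 115, 139 and 133 CPM in TolDC with LPS, 19.7, 25.6 and 23.9 CPM in TolDC, 211, 285 and 270.0 CPM in BMDC with LPS and 4.798, 11.3 and 10.7 CPM in BMDC. It was higher in TolDC without LPS (1.37 ± 0.29 (SE, adjusted p = 0.00289)) and lower with LPS (−0.98 ± 0.21 (SE, adjusted p = 0.00254)), a call lost with the libraries numbered 2 and 3 summed (−0.97). Its responses were 2.49 ± 0.23 in TolDC and 4.84 ± 0.27 in BMDC, and differed by −2.35 ± 0.35 (SE, adjusted p = 7.07e-04).

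Irf9, the DNA-binding partner of Stat2, differed little (−0.19 ± 0.035 (SE, adjusted p = 1.04e-04) with LPS and −0.21 ± 0.037 (SE, adjusted p = 6.73e-05) without). Its responses to LPS were 0.54 ± 0.036 in TolDC and 0.53 ± 0.036 in BMDC, a difference of 0.019 ± 0.051 (adjusted p = 0.7998).

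Irf1, which binds the same element, had 201, 226 and 218 CPM in TolDC with LPS, 201, 209 and 209 CPM in TolDC, 267, 305 and 299 CPM in BMDC with LPS and 156, 163 and 158 CPM in BMDC. It was not called with LPS in TolDC (0.059 ± 0.050, adjusted p = 0.306), though it was without the 4 libraries numbered 1 (0.088), and rose in BMDC (0.87 ± 0.051 (SE, adjusted p = 1.44e-11)). Irf8, a factor needed for the development of several dendritic cell types, had 54.7, 51.95 and 49.7 CPM in TolDC with LPS, 87.6, 81.4 and 83.4 CPM in TolDC, 174, 166 and 162 CPM in BMDC with LPS and 51.3, 45.1 and 49.7 CPM in BMDC. It fell with LPS in TolDC (−0.69 ± 0.051 (SE, adjusted p = 4.59e-10)) and rose in BMDC (1.78 ± 0.051 (SE, adjusted p = 3.96e-16)), the largest difference between responses in the list (−2.47 ± 0.072 (SE, adjusted p = 1.88e-14)). Irf3, which LPS activates without a change in its transcript being needed, was higher in TolDC without LPS (0.61 ± 0.049 (SE, adjusted p = 4.02e-09)) and with LPS (0.23 ± 0.047 (SE, adjusted p = 3.58e-04)). Socs1, an inhibitor of the receptor's kinases, rose by 0.86 ± 0.11 in TolDC and by 0.82 ± 0.11 in BMDC, and Socs3, another, by 4.11 ± 0.059 and 3.68 ± 0.057. The difference between responses was not called for Socs1 (0.041 ± 0.16, adjusted p = 0.8601) and was 0.43 ± 0.075 (SE, adjusted p = 1.21e-04) for Socs3. Tlr9, an endosomal DNA receptor, was lower in TolDC with LPS (3.23-fold) and without (2.83-fold).

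**Figure D5:**
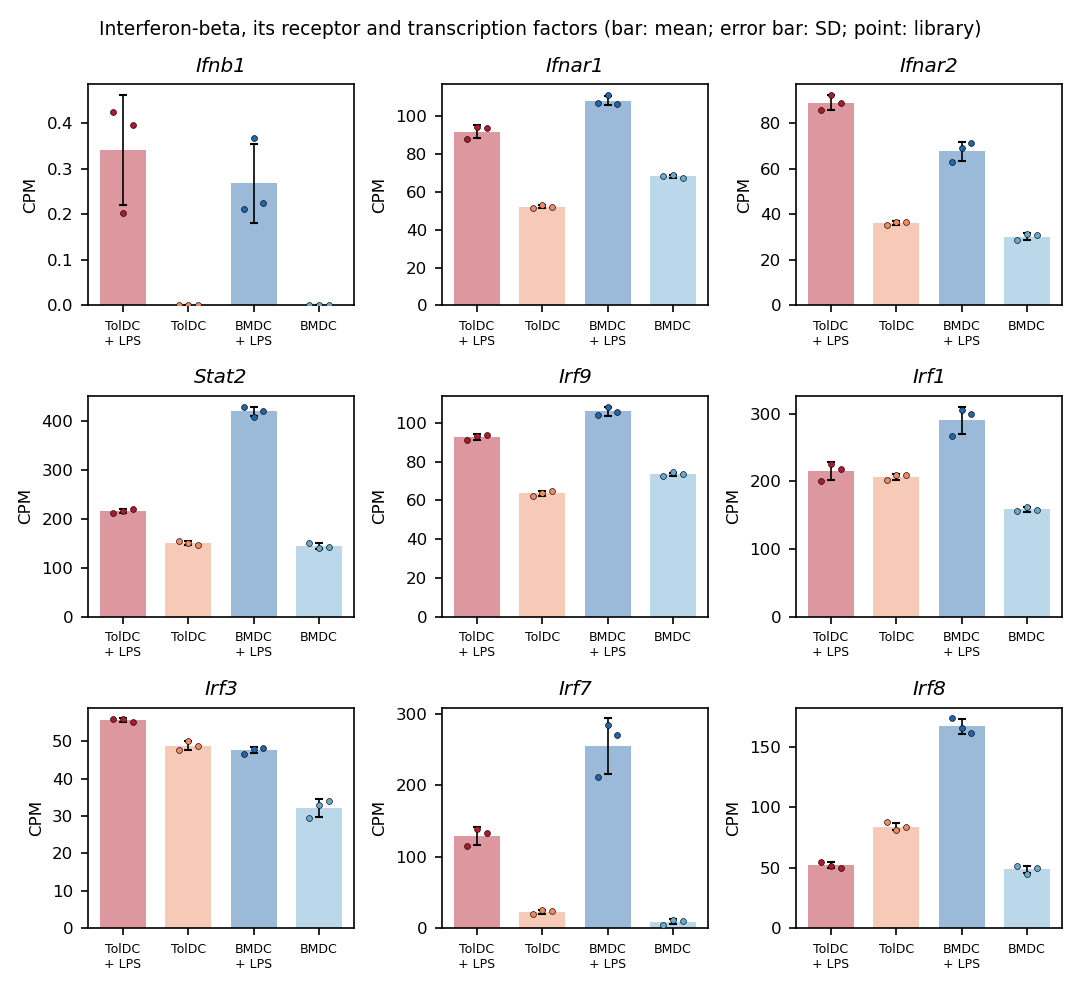
CPM (vertical axes from 0, each with its own scale) of interferon-beta, its receptor chains and transcription factors in the 4 groups; bars are means, error bars SD and points the 3 libraries of a group. Ifnb1 is at 0 in both groups without LPS, Stat2 and Irf7 are highest in BMDC with LPS, Irf3 is higher in TolDC than in BMDC on average with and without LPS, and Irf8 is lower in TolDC with LPS than in TolDC.

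A further 2 lists stood beside the set. Of 16 interferon-induced GTPases, which attack vacuoles holding microbes, 6 rose and 5 fell with LPS in TolDC (35.4% and 35.9% of all genes), shares near those of all genes, and 13 rose and none fell in BMDC (36.7% and 36.4%). All 16 were lower in TolDC with LPS (33.7% of all genes; median log2 difference −0.63), while without LPS 8 were higher and 3 lower (32.0% and 30.4%; median 0.22). The difference between the responses was called for 15, all lower in TolDC (24.0% of all genes): 6 rose in both cell types, 5 were not called in TolDC and rose in BMDC, 2 fell in TolDC and rose in BMDC, and 2 fell in TolDC and were not called in BMDC. Gbp5, which promotes inflammasome assembly, had 363, 345 and 353 CPM in TolDC with LPS, 81.9, 81.4 and 77.8 CPM in TolDC, 520.2, 519.5 and 509 CPM in BMDC with LPS and 49.99, 50.8 and 47.5 CPM in BMDC, and its response differed by −1.24 ± 0.055 (SE, adjusted p = 5.43e-12). Tgtp1 had the largest difference between responses in this list (−2.37 ± 0.40 (SE, adjusted p = 0.00133)) and was at 3.33, 6.83 and 6.42 CPM in TolDC with LPS, 11.7, 12.2 and 12.2 CPM in TolDC, 18.01, 34.8 and 26.5 CPM in BMDC with LPS and 10.8, 11.8 and 10.3 CPM in BMDC. Of 21 tested near paralogs of the members, 3 were higher and 13 lower in TolDC with LPS (34.3% and 33.7% of all genes) and 5 higher and 5 lower without (32.0% and 30.4%). Trim30c, a copy of Trim30a, had 24.7, 27.1 and 26.6 CPM in TolDC with LPS, 5.08, 5.71 and 4.299 CPM in TolDC, 83.3, 89.2 and 83.8 CPM in BMDC with LPS and 5.79, 5.54 and 4.73 CPM in BMDC. It rose by 2.38 ± 0.083 (SE, adjusted p = 6.74e-15) in TolDC and by 3.99 ± 0.078 (SE, adjusted p = 1.38e-18) in BMDC.

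Between libraries of a group, the genes of the set moved together with the library number. In the stimulated groups replicate 1 was low: the median deviation of the 39 genes from their group means was −0.078 in TolDC with LPS replicate 1 and −0.080 in BMDC with LPS replicate 1 on the log2 scale, against 0.028 to 0.066 and 0.034 to 0.050 in the other two libraries. In the groups without LPS the medians lay between −0.020 and 0.014. Taken number by number, the median response to LPS was 1.08, 1.17 and 1.22 in TolDC and 1.56, 1.68 and 1.64 in BMDC for numbers 1, 2 and 3. The median difference between TolDC and BMDC with LPS was −0.82, −0.67 and −0.74, and without LPS −0.20, −0.19 and −0.23. Each number gave the same direction. The low markers of granulocytes and of mast cells and basophils in the libraries numbered 1 stood beside these values, and their part was not tested.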

How the data were processed

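The authors deposited raw counts for each gene in 12 libraries, in 3 count columns (without regard to strand, and 1 for each strand). Per the submitters' processing notes, reads were trimmed with cutadapt and aligned to mouse genome mm10 (GRCm38) with STAR, and edgeR and limma were used; no versions, annotation or settings are stated. Libraries came from a stranded messenger RNA kit, per the labels' protocols. Column 4, with 35.2 to 37.3 times the reads of column 3, was used. Reads that match several places are not in the counts, per the usual output of the aligner in this format, which makes levels uncertain where a gene has near copies. No values of other samples were found in the files.

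Genes were named, placed and measured in length with GENCODE M21 (30934 of 31054 identifiers matched), and promoters came from a RefSeq table. The rows that count reads outside genes stayed out of library sizes and tests. filterByExpr left 13141 genes. Libraries were scaled with TMM factors of 0.945 to 1.04, and a quasi-likelihood model with a mean per group was fitted to all 12 libraries (edgeR 4.0.16, R 4.3.3), so that the groups share 1 estimate of the spread. The 5 contrasts were LPS in TolDC, LPS in BMDC, TolDC over BMDC with and without LPS, and the LPS response of TolDC minus that of BMDC. Adjustment was by Benjamini-Hochberg over all genes tested, and a gene was called at an adjusted p below 0.05. The adjusted p-values in the text are from this edgeR fit unless another tool is named. Standard errors were taken from the log2 change and its F statistic. A group with no reads of a gene allows up to 0.0298 to 0.0415 CPM at 3 counts over a group, a limit that covers counting error only. Libraries of different groups share replicate numbers in the labels, which do not say what a number marks. Deviations from the group means correlated at 0.131 to 0.466 in all 12 same-numbered pairs within the 4 comparisons of 2 groups. This was above the 0.1 taken to mark pairs. Of all 18 such pairs, 1, of BMDC with TolDC + LPS, was at 0.091. Differently numbered pairs ran from −0.372 to 0.202, and those of number 2 with number 3 also lay above 0.1. Passing 0.1 therefore does not show that numbers 2 and 3 mark pairs. The model had no block for the numbers, and a fit with one is given where it changes a call. The procedure was tested on simulated data, for LPS in BMDC only. The simulation used 1 fixed spread for all genes and no effect of library number, so it cannot speak to such effects.

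The genes and the lists of other genes were chosen with earlier results of these data known. Described in every library were, per contrast, the 5 called members with the largest rise and the 5 with the largest fall at 5 CPM or more, the 3 most abundant members not called, and genes fixed by name; of the other lists, genes fixed by name and the called gene with the largest change. Some genes this rule picks, of the cytokine and cell marker lists, are left out, and 1 gene of the pathway list is not reported here. Alternatives were another count column, 3 other scalings, 2 other filters, DESeq2 1.42.0, limma-voom (limma 3.58.1), fits to the groups of a contrast, a replicate block, a term for or removal of the libraries numbered 1, summed libraries, and leaving out each library.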

Additional observations from a re-analysis of the deposited data

Results flagged for a closer look

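For the genes below, the change with LPS differed between TolDC and BMDC by the edgeR test of that difference at an adjusted p below 0.05. The values are the log2 change in TolDC minus that in BMDC, so a negative one marks a weaker rise, or a larger fall, in TolDC. Each rests on 3 libraries a group, and in each all 12 libraries shared 1 estimate of the spread.

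Among the antiviral genes the difference was at least 2-fold for Ifi44 (−2.29), Ifit2 (−1.73), Ifitm3 (−1.27), Mx1 (−1.22) and Ifi205 (−1.17). Of these, Ifit2, Ifi44 and Ifi205 rose in both cell types and rose less in TolDC. Ifitm3 rose in BMDC and fell in TolDC, and Mx1 fell in TolDC and was not called in BMDC. The difference was smaller for Dtx3l (−0.93), Trim30a (−0.81), Herc6 (−0.78), Phf11b (−0.73), Parp9 (−0.71), Rsad2 (−0.67), Usp18 (−0.64), Isg15 (−0.63), Dhx58 (−0.61), Xaf1 (−0.60), Oasl2 (−0.60), Parp12 (−0.56) and Oas3 (−0.56). Phf11b fell in both cell types and more so in TolDC, and the other members named in the preceding sentence rose in both. The least differences were those of Oasl1 (−0.52), Daxx (−0.52), Parp14 (−0.51), Eif2ak2 (−0.47), Ifi204 (−0.40), Trim25 (−0.37), Ifi35 (−0.32), Ifih1 (−0.21) and Adar (−0.18). Adjusted p-values over these 27 genes ran from 1.14e-09 for Mx1 to 0.0435 for Oas3.

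Of 34 tested genes of the interferon pathway, 12 had a lower change with LPS in TolDC (24.0% of all genes) and 5 a higher one (20.4%). Only those picked for description are named here. The change was lower for Irf8 (−2.47), Irf7 (−2.35), Stat2 (−1.02), Irf1 (−0.81) and Irf3 (−0.38) and higher for Ifnar1 (0.15) and Socs3 (0.43). Of these, Irf8 fell in TolDC and rose in BMDC, Irf1 was not called in TolDC and rose in BMDC, and the rest rose in both. Adjusted p-values in this list ran from 1.88e-14 for Irf8 to 0.0311 for Ifnar1. The change was also lower in TolDC for Tgtp1 (−2.37), Trim30b (−1.67), Trim30c (−1.60), Gbp5 (−1.24) and Ifi203 (−0.52), of which Tgtp1 fell in TolDC and the others rose in both cell types, with adjusted p-values from 5.43e-12 for Gbp5 to 0.00133 for Tgtp1. Of all 21 tested near paralogs, 10 had a lower change in TolDC (24.0% of all genes) and 1, Ifi27 (0.97), a higher one (20.4%).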

How the results depend on the processing

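Each comparison was repeated under up to 25 other settings, 12 of which left out 1 library. Single genes were followed in a comparison only if they were called in it or were picked for it by the rule for described genes. Of these values, 6130 kept their direction and their side of the threshold, 86 were no longer called, 20 became called and 18 changed sign. Calls gained by other genes are not in the 20, among them most of those that the replicate block added. The number of antiviral genes lower in TolDC with LPS, 34, ranged from 32 to 35, and the number with a lower log2 change with LPS in TolDC than in BMDC, 27, from 23 to 33. With upper quartile scaling the median log2 change of the set was 1.51 for LPS in BMDC, −0.66 for TolDC with LPS and −0.49 for the difference between responses. With library totals only it was 1.52 for LPS in BMDC and 1.07 for LPS in TolDC, where 2 genes fell at least 2-fold. Leaving out 1 library gave medians of 1.55 to 1.65 for LPS in BMDC and 0 to 1 genes with a higher change in TolDC. That count was 1 with DESeq2, 3 with a term for the libraries numbered 1 and 3 without those 4 libraries, where also 0 genes rather than 1 were at least 2-fold higher in TolDC with LPS. The causes of these differences were not tested.

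The changes of sign were all of genes that were not called. Mx1 with LPS in BMDC was −0.041 with upper quartile scaling, −0.033 with library totals only and −0.000887 to 0.091 with 1 library left out. Ddx58 with LPS in TolDC was −0.016 with library totals only. Trim30a in TolDC without LPS was 0.0013 with library totals only, 0.0022 in the fit to its 2 groups, 0.0020 with libraries numbered 2 and 3 summed, and −0.037 to 0.045 with 1 library left out. In TolDC with LPS, Ifi35 was −0.0049 with DESeq2 size factors, −0.0075 with library totals only, −0.0045 with DESeq2 and −0.0082 to 0.030 with 1 library left out, which gave −0.040 to 0.15 for Zbp1 and −0.15 to 0.19 for Rtp4, with the lowest values of all 3 in the fits without BMDC with LPS replicate 1. The difference for Sp100 was 0.0068 with upper quartile scaling.

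With a replicate block, 32 genes had a lower and 3 a higher change with LPS in TolDC than in BMDC, and 26 genes were lower in TolDC without LPS in place of 20. Among the 39 genes the block ended no call, and beside the calls named in the report it added those of Ifit3, Oasl2, Trim25 and Phf11b as lower and Xaf1 as higher in TolDC without LPS. With the libraries numbered 2 and 3 summed, which leaves 2 samples a group, 23 genes had a lower and 0 a higher change, and Oas3, Oasl2, Ifih1 and Adar were no longer called. Depth limits what can be said of Ifnb1 and of Ifi44, Ifit3 and Ifi205 without LPS, which rest on few reads.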
